A study of Mus musculus with 16 samples.

Results

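The collagen genes are the protein-coding genes that encode the chains of the collagen family, taken here as every gene named Col, a type number, a and a chain number. Of 41411 genes in the deposited table, 44 bore such a name, and 43 of them were above 0 in at least 4 of 16 libraries. Col10a1, of growth plate cartilage, had 2 reads in 1 library and was left out. The 43 genes were sorted by protein class into 11 fibrillar genes, 6 basement membrane genes, all of type IV, and 26 others. All mice were of the C57BL/6 strain, and total RNA of their esophagus was read in an experimental form of eosinophilic esophagitis, which is an allergic inflammation of that organ. The assay was CEL-Seq, a protocol that counts short tags near the 3' ends of transcripts. The 4 groups, of 4 libraries each, were Il13ra1-/- mice given OXA (KO OXA), Il13ra1-/- mice given vehicle (KO vehicle), wild-type mice given OXA (WT OXA) and wild-type mice given vehicle (WT vehicle). OXA is an ethoxymethylene phenyl oxazolinone, a small reactive compound (hapten) that provokes allergic inflammation, and Il13ra1 encodes a receptor chain for the cytokine IL-13. Age, sex, dose, the design of the knockout allele and the cells that still carry the receptor are not given in the sources used here.

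Collagens are proteins whose chains wind around each other in a helix built of repeats of glycine and other residues, and most are secreted. Fibrillar collagens, led by types I and III, form the tension-bearing fibers of connective tissue, and type V regulates the width of those fibers. Type IV forms the sheet of the basement membrane under epithelium and around vessels and muscle, and other types link, anchor or decorate these structures. Fibroblasts make most of the fibrillar collagen of the esophageal wall, and fibrosis under the epithelium is a known feature of eosinophilic esophagitis.

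Libraries held 8.82 to 15.2 M reads (M, mega) in KO OXA, 7.91 to 16.5 M in KO vehicle, 20.2 to 27.3 M in WT OXA and 5.61 to 9.55 M in WT vehicle, so that the WT OXA libraries were the deepest. The targeted gene Il13ra1 had values of 44.0 to 174 in KO OXA, 31.2 to 64.7 in KO vehicle, 584 to 874 in WT OXA and 134 to 226 in WT vehicle, and no KO library reached a WT library of the same treatment. None of 6 markers of the suprabasal esophageal lining was at 0 in all libraries, and 4 of them fell with OXA in WT (66.7%, against 16% of all genes). A 3' tag can lie outside a deleted exon, so these values check the labels only in part. Labels do not say how the replicates of a group were raised or handled, and p-values then measure the spread between these libraries alone. All values below are the deposited values, which are counts of a gene scaled by a factor of its library and not by gene length, so levels are compared between groups and not between genes. Fold changes are on log2(value + 1) with their standard error (SE), and adjusted p-values are from limma with Benjamini-Hochberg adjustment over 16748 genes tested, with a threshold of 0.05.

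Summed over their members, the fibrillar genes stood at a mean of 43634 ± 9999 in KO OXA, 42167 ± 11728 in KO vehicle, 63240 ± 2846 in WT OXA and 61859 ± 12144 in WT vehicle (SD, n = 4 each). Most of that sum came from Col1a2 and Col3a1. Without these genes the other 9 fibrillar genes summed to 3052 ± 381 in KO OXA, 3661 ± 1127 in KO vehicle, 6919 ± 273 in WT OXA and 4831 ± 1321 in WT vehicle. The lowest WT OXA library of that smaller sum, at 6677, was above the highest WT vehicle library, at 6356, and above the highest KO OXA library, at 3488. Col1a1 made up most of the smaller sum in WT, at 4023 ± 317 with OXA and 2840 ± 1100 with vehicle, and its own WT groups overlapped. The genes left out of it, Col1a2 and Col3a1, had WT log2 fold changes near 0, at 0.03 and -0.01. The 6 type IV genes summed to 1201 ± 149 in KO OXA, 1582 ± 330 in KO vehicle, 1972 ± 420 in WT OXA and 1638 ± 92.2 in WT vehicle, with every KO OXA library below every WT OXA library. Among the others, the sums moved in different directions. The 4 transmembrane collagens summed to 1997 ± 461 in KO OXA, 2007 ± 310 in KO vehicle, 857 ± 156 in WT OXA and 2596 ± 576 in WT vehicle. The 2 short-chain collagens, Col8a1 and Col8a2, summed to 491 ± 113 in KO OXA, 464 ± 76.2 in KO vehicle, 935 ± 72.2 in WT OXA and 370.4 ± 92.0 in WT vehicle. WT OXA was the lowest of the 4 groups for the transmembrane sum and the highest for the short-chain sum, and 1 gene made up most of each. Col17a1 alone averaged 1814 ± 398 in KO OXA, 1794 ± 330.5 in KO vehicle, 673 ± 181 in WT OXA and 2327 ± 548 in WT vehicle, and Col8a1 averaged 928 ± 68.7 in WT OXA. Of the other transmembrane genes, Col23a1 was also lowest in WT OXA, at 55.7 ± 5.3, and highest in WT vehicle, at 102 ± 25.2. It averaged 62.2 ± 41.1 in KO OXA and 69.3 ± 7.69 in KO vehicle. Col13a1 and Col25a1 differed from that pattern. Col13a1 was lowest in KO OXA, at 30.2 ± 21.9, against 46.9 ± 32.3 in WT OXA, and Col25a1 averaged 81.8 ± 24.3 in WT OXA and 83.6 ± 30.0 in WT vehicle. KO vehicle replicate 4 was the lowest of its group for the fibrillar sum, at 27006, and for the sum of the others, at 8458. These sums are descriptions, with no test.

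**Figure D1:**
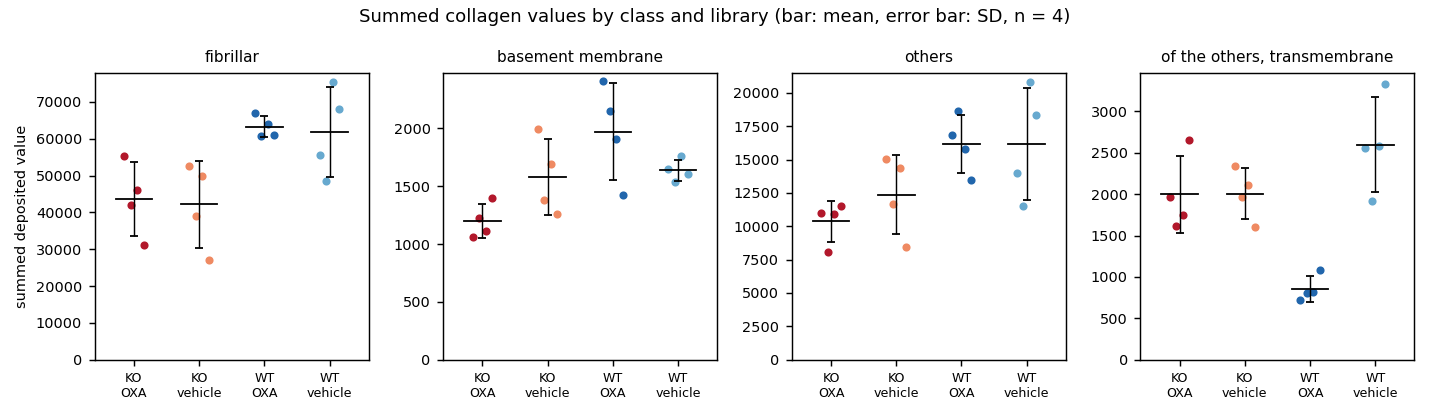
Summed deposited values of the fibrillar (11 genes), basement membrane (6 genes), other (26 genes) and, among the others, transmembrane (4 genes) collagens in each of 16 libraries, with the group mean and SD (n = 4); every y axis starts at 0. Transmembrane collagens were at 721 to 1082 in WT OXA, below every library of the other groups, while the fibrillar sums of the WT OXA and WT vehicle groups overlapped.

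Of the 43 genes, 41 passed the filter on low values (4 or more libraries at 5 or above), 10 of them fibrillar, 6 basement membrane and 25 others. Col2a1, the collagen of hyaline cartilage, did not exceed 1.24 in any library, and Col9a1, a cartilage collagen too, was at 38.6 in KO OXA replicate 4 and at most 2.28 elsewhere. KO OXA replicate 4 had 23730 genes above 0, against 16954 to 18278 in the other KO OXA libraries. It was also the highest of its group for Col11a1 (67.8), Col19a1 (83.5) and Col24a1 (70.9), though not for Col8a2 or Col9a3. In wild-type mice OXA changed 10 of the 41. Col5a2, Col5a3, Col6a4, Col6a5, Col8a1 and Col15a1 rose, which is 14.6% of the members tested, against 18% of all genes tested, and Col4a6, Col9a2, Col16a1 and Col17a1 fell, which is 9.76% of the members, against 16% of all genes. The share of collagen genes called in WT was thus no higher than that of genes at large, and the median log2 fold change of the members was 0.24, against 0.10 over all genes. In Il13ra1-/- mice OXA changed none of the 41 (limma, adjusted p under 0.05), where 1.81% of all genes were called higher and 0.0896% lower. Without adjustment, at p under 0.05, none of the 41 was higher in KO and 2, Col4a6 and Col6a5, were lower. Over all 16748 genes, 1581 were higher and 801 lower by that rule. In KO, edgeR and DESeq2 on recovered reads called 0 members. The median of the members there was -0.26, against -0.01 over all genes.

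A call in one genotype and not in the other is no test of the difference, which was tested as the interaction (the KO effect of OXA minus the WT effect). The interaction was higher for 1 of 41 members, Col17a1, where 10.1% of all genes were called higher, and lower for 3, Col4a1, Col6a5 and Col8a1 (7.32% of members, against 7.67% of all genes). When KO vehicle replicate 4 was left out, 10 members were called lower in the interaction, and 6 without KO OXA replicate 4, so the lower count rests on which libraries enter. For fits with a library left out, the share of all genes called is not given here. Their counts are therefore not read as particular to collagens. Between the genotypes under vehicle no member was called, where 0.0358% of all genes were called higher and 0.0239% lower. Without adjustment, at p under 0.05, 2 of 41 members were higher and 4 lower in KO vehicle. Over all 16748 genes, 887 were higher and 642 lower by that rule. With edgeR and DESeq2, 0 members were called. Members leaned lower under vehicle too, with a median log2 fold change of -0.18, against 0.02 over all genes. Fitted changes were above 0 for 14 of 41 members, against 8788 of 16748 genes. Between KO OXA and WT OXA the share of members called lower was larger than that of genes at large, as counts compared with no test. In KO OXA 11 of 41 (26.8%) were lower, against 12.9% of all genes, and 1 (2.44%), Col17a1, was higher, against 14.6% of all genes. The median log2 fold change was -0.60 over the members and -0.05 over all genes. Of the fitted changes of members, 32 of 41 were below 0 and 9 above, against 7929 of 16748 above 0 over all genes. Every one of these 12 calls was kept under each of 27 alternatives. In WT, leaving out WT OXA replicate 1 or 2 lowered the count of members that rose to 3, and leaving out WT vehicle replicate 2 or 3 lowered the count that fell to 2. The comparisons of OXA against vehicle in WT and of KO against WT under OXA share the WT OXA libraries. With every library scaled to an equal total, the median of all genes was 0.41 in WT, against 0.10 with the deposited size factors, and -0.44 between KO OXA and WT OXA, against -0.05. On that scale the calls among all genes were 77.4% higher in WT, against 53.0%, and 19.9% higher between KO OXA and WT OXA, against 53.1%. The members read there as 13 of 41 higher (31.7%) in WT, against 30.4% of all genes, and as 1 lower. Between the genotypes under OXA they read as 18 lower (43.9%), against 30.4% of all genes, and as 1 higher. The 7 members added to those that rose in WT were Col1a1, Col4a1, Col4a2, Col5a1, Col6a3, Col9a3 and Col27a1. Between KO OXA and WT OXA, Col1a2, Col3a1, Col6a1 and Col6a5 were among the members added, at -1.43 to -0.80 on the log2 scale, and these 4 also passed with thinned reads at equal totals. In the interaction 12 were lower (29.3%, against 20.6% of all genes), with Col1a1, Col4a2, Col5a1, Col5a3, Col15a1 and Col27a1 among those added.

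**Figure D2:**
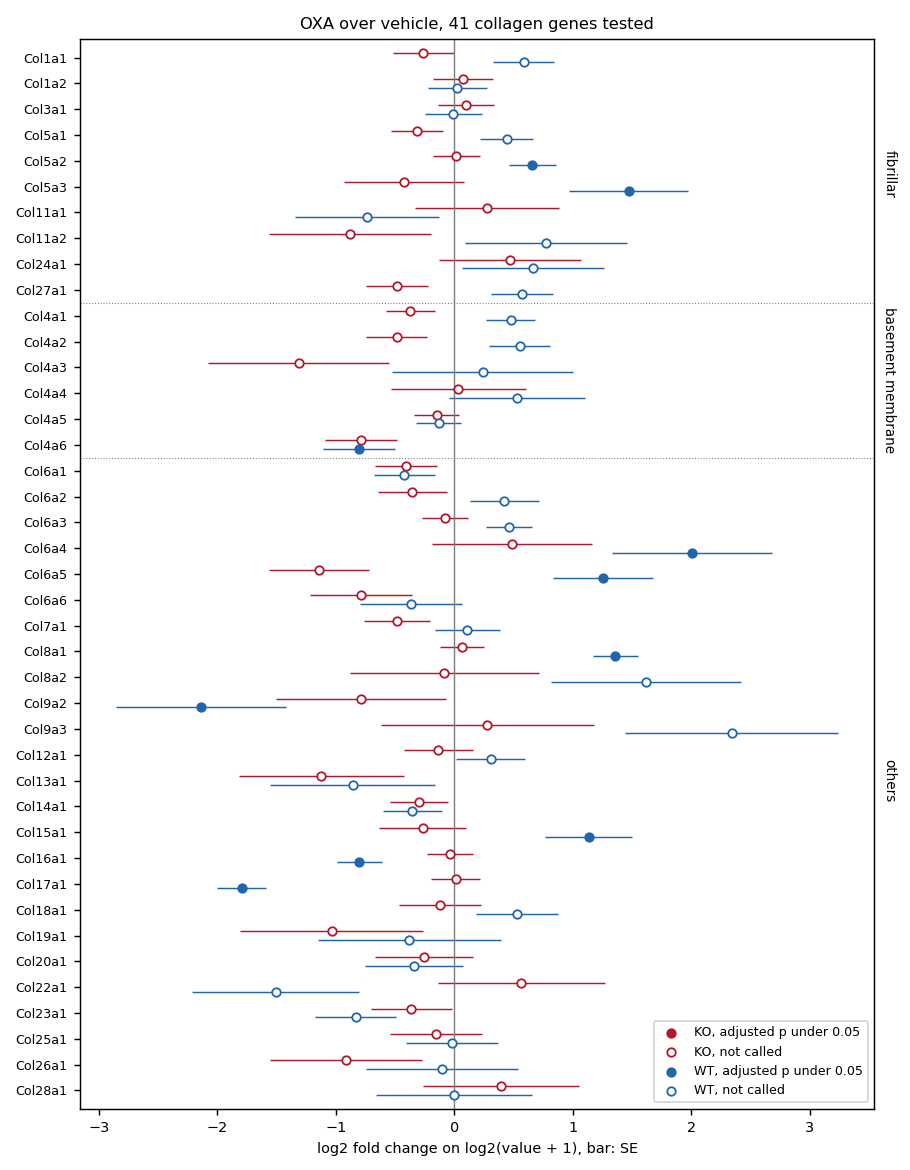
Log2 fold change of OXA over vehicle, on log2(value + 1), for the 41 collagen genes tested, in KO (upper point of each row) and WT (lower point), with bars for the SE and filled points for an adjusted p under 0.05; dotted lines part the fibrillar, basement membrane and other genes. In WT 10 points are filled, from Col9a2 at -2.14 to Col6a4 at 2.01, and in KO none is.

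Among the fibrillar genes, 2 of 10 tested (20%) rose with OXA in WT, against 18% of all genes, and none fell, against 16%. In KO OXA 5 of 10 (50%) were lower than in WT OXA, against 12.9% of all genes. The fibrillar median of KO over WT was -0.95 under OXA and -0.38 under vehicle, against -0.05 and 0.02 over all genes. In bulk tissue, fewer cells of a type and less RNA per cell cannot be told apart. Col5a1, Col5a2 and Col5a3 encode the chains of type V collagen, which sits inside type I fibers and sets their width. Col5a2 values were 611, 606, 769.9 and 548 in KO OXA, against 849.9, 627, 724 and 384 in KO vehicle, and 1035, 1183, 1166 and 1071 in WT OXA, against 704, 576, 925 and 655 in WT vehicle. Every WT OXA library was above every library of the other groups. Its log2 fold change of OXA over vehicle was 0.66 ± 0.20 (adjusted p = 0.0157) in WT, and KO over WT under OXA it was -0.82 ± 0.20 (adjusted p = 0.00424). Col5a3 values were 9.17, 33.3, 17.3 and 41.8 in KO OXA, against 48.7, 39.7, 46.4 and 8.21 in KO vehicle, and 107, 147, 124 and 87.5 in WT OXA, against 49.6, 26.3, 34.7 and 60.2 in WT vehicle. Here too the WT OXA libraries lay above all 12 others. Col5a3 rose by 1.47 ± 0.50 (adjusted p = 0.0299) on the log2 scale in WT, and it was lower in KO OXA at -2.34 ± 0.50 (adjusted p = 0.00167), the most negative among the fibrillar genes tested. The WT call of Col5a3 was lost without WT OXA replicate 1, 2 or 3 or WT vehicle replicate 2 or 3 (log2 fold change 1.27 to 1.5, adjusted p = 0.052 to 0.0784) and with no filter (adjusted p = 0.0621). Col5a1 values were 651, 629.9, 618 and 698 in KO OXA, against 1182, 655, 1134 and 481 in KO vehicle, and 1368, 1392, 1518 and 1211 in WT OXA, against 983, 787, 1045 and 1270.3 in WT vehicle. The KO OXA libraries lay together below all WT OXA libraries, while WT OXA and WT vehicle overlapped through 1 library each. Col5a1 gave 0.44 ± 0.22 (adjusted p = 0.132) in WT, -1.08 ± 0.22 (adjusted p = 0.00112) for KO over WT under OXA, and -0.76 ± 0.31 (adjusted p = 0.102) for the interaction.

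Col1a1 and Col1a2 encode the chains of type I collagen, and Col3a1 encodes type III, which forms thin fibers beside type I. Col1a1 values were 2077, 1324, 1717 and 1202 in KO OXA, against 2219, 1754, 2560.4 and 1182 in KO vehicle, and 4360.4, 3594, 4066 and 4073 in WT OXA, against 2401, 1616, 4199.6 and 3142 in WT vehicle. KO OXA libraries were all below the WT OXA libraries, and the WT vehicle libraries spread widely and overlapped both. Col1a1 was lower in KO OXA than in WT OXA, at -1.38 ± 0.26 (adjusted p = 0.000465), while in WT the effect of OXA was 0.59 ± 0.26 (adjusted p = 0.0861) and the interaction -0.85 ± 0.36 (adjusted p = 0.114). Col1a2 values were 20406, 15347, 17200.3 and 13059.7 in KO OXA, against 19955, 13689, 20781 and 10078 in KO vehicle, and 25432, 23142, 23781 and 22140.3 in WT OXA, against 19679, 16456, 32906 and 27126 in WT vehicle. Col1a2 in WT OXA lay inside the range of WT vehicle, with a log2 fold change of 0.03 ± 0.25 (adjusted p = 0.951), whose sign changed with the tool and with the library left out. KO OXA was below WT OXA in every library, yet the difference missed the threshold, at -0.53 ± 0.25 (adjusted p = 0.124). With equal library totals it passed, at -0.95 (adjusted p = 0.00397). Under vehicle KO over WT was of similar size for Col1a2 and not called, at -0.58 ± 0.25 (adjusted p = 0.515). For Col1a1 it was -0.53 ± 0.26 (adjusted p = 0.547) under vehicle. Col3a1 values were 31415, 23927, 25609 and 15367 in KO OXA, against 28251, 22014, 24582 and 14675 in KO vehicle, and 34259, 31009, 33202 and 32320.2 in WT OXA, against 31384, 28746, 36102 and 35713 in WT vehicle. The WT groups overlapped for Col3a1, with -0.01 ± 0.24 (adjusted p = 0.985), a sign that turned with the scaling. KO OXA reached into the range of WT OXA, with -0.49 ± 0.24 (adjusted p = 0.142), which passed with equal library totals, at -0.90 (adjusted p = 0.00222). Under vehicle KO over WT was -0.59 ± 0.24 (adjusted p = 0.504) for Col3a1, with every KO vehicle library below every WT vehicle library. Col27a1 encodes a fibrillar chain known from cartilage and other connective tissue, and its values were 95.3, 78.6, 96.5 and 124 in KO OXA, against 164, 133, 116 and 136 in KO vehicle, and 279, 343, 161 and 171 in WT OXA, against 219, 178, 111 and 125 in WT vehicle. All KO OXA libraries were below all WT OXA libraries, whereas WT OXA overlapped WT vehicle. Col27a1 gave -1.21 ± 0.26 (adjusted p = 0.00167) for KO over WT under OXA, 0.57 ± 0.26 (adjusted p = 0.101) for OXA over vehicle in WT and -1.05 ± 0.37 (adjusted p = 0.0552) for the interaction.

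Within a library the size factor cancels from the ratio of the chains of a shared molecule. The ratio of Col1a1 to Col1a2 was 0.095 ± 0.00718 in KO OXA, 0.120 ± 0.00732 in KO vehicle, 0.170 ± 0.0117 in WT OXA and 0.116 ± 0.0128 in WT vehicle (SD, n = 4 each). WT OXA ratios ran from 0.155 to 0.184 and were above all other libraries, whose highest was 0.128. For the type VI chains, the ratio of Col6a1 to Col6a2 was 0.416 ± 0.0804 in KO OXA, 0.427 ± 0.0259 in KO vehicle, 0.222 ± 0.0323 in WT OXA and 0.401 ± 0.0807 in WT vehicle. Every WT OXA library was at or below 0.269, and every other library was at or above 0.328. The ratio of Col1a2 to Col3a1 stayed between group means of 0.703 in KO OXA and 0.722 in WT OXA, with overlap among all groups. The ratio of Col4a5 to Col4a6 was 3.2 ± 0.545 in KO OXA, 2.06 ± 0.453 in KO vehicle, 5.03 ± 0.694 in WT OXA and 3.2 ± 0.925 in WT vehicle. The ratios are a description of the tags, chosen with results of these data known, and carry no test.

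**Figure D3:**
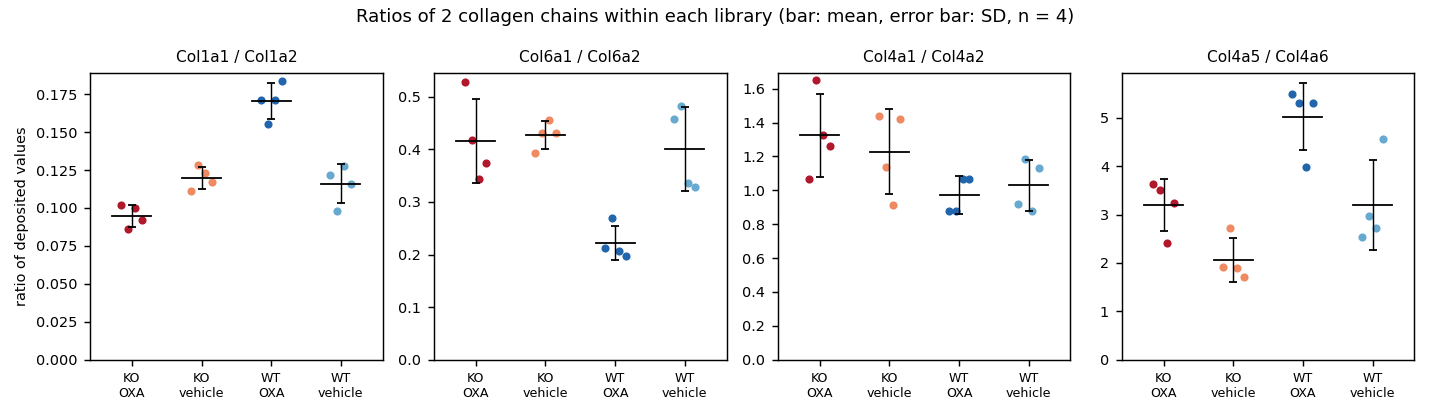
Ratio of the deposited values of 2 collagen chains within each of 16 libraries, with the group mean and SD (n = 4), for Col1a1 over Col1a2, Col6a1 over Col6a2, Col4a1 over Col4a2 and Col4a5 over Col4a6; every y axis starts at 0. WT OXA is highest for Col1a1 over Col1a2 (0.155 to 0.184) and lowest for Col6a1 over Col6a2 (0.198 to 0.269), and the Col4a1 over Col4a2 ratios of the groups overlap.

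Type IV collagen is encoded by pairs of genes that lie head to head. Col4a1 and Col4a2 encode the chains of the basement membrane found in nearly all tissues, around vessels included. In the coordinates of the deposited table (GRCm38), Col4a1 lies on chromosome 8 and ends at base 11312826, and Col4a2 starts at base 11312805, so the annotated genes overlap by 22 bases and are read in opposite directions. Their start regions are shown because both genes were called lower together in KO OXA. They come from RefSeq's GRCm38.p6 annotation and run from 250 bases before to 50 bases after each start, at chr8:11312555-11312854 on the plus strand for Col4a2 and at chr8:11312777-11313076 on the minus strand for Col4a1, with 78 bases in common. Capitals mark the CCAAT box and the GC box GGGCGG, on either strand.
Col4a2: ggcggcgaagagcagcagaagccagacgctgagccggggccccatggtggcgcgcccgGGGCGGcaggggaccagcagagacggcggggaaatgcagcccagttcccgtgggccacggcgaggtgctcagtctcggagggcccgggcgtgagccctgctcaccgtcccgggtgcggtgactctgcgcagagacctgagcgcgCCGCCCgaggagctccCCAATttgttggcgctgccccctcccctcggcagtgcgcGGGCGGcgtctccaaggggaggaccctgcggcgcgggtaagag
Col4a1: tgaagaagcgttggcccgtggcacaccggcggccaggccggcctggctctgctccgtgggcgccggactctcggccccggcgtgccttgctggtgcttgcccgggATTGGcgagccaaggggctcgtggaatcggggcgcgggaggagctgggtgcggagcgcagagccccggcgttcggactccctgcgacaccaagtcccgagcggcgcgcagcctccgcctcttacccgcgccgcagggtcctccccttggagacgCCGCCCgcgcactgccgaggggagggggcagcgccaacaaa
The Col4a2 window held 1 CCAAT box and 3 GC boxes, and the Col4a1 window 1 CCAAT box and 1 GC box, with a GC content of 73.7% and 74.0%. Neither held a TATAAA box.

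Across the collagen genes, 34 matched the RefSeq promoter table with 37 windows of the same length. A GC box on either strand was found in 62.2% of these windows, against 35.7% of all 32851 windows. CCAAT was found in 35.1%, against 37.4% of all windows, and TATAAA in 10.8%, against 13.6%. The spacing read by STAT6, the factor that IL-13 receptors activate, which is TTC and GAA held 4 bases apart, was in none of the collagen windows and in 6.95% of all windows. A match in such a window is a description of letters and not a binding site.

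Col4a1 values were 361, 356, 288 and 448 in KO OXA, against 656, 427, 492 and 338 in KO vehicle, and 835, 749.7, 700.3 and 498 in WT OXA, against 438, 429.6, 498 and 624 in WT vehicle. Col4a2 values were 339, 216, 218 and 355 in KO OXA, against 455, 375, 536 and 238 in KO vehicle, and 954, 856, 656 and 466 in WT OXA, against 475, 363, 567 and 550.5 in WT vehicle. For both genes the KO OXA libraries were below all WT OXA libraries, and the vehicle groups overlapped. KO over WT under OXA gave -0.93 ± 0.21 (adjusted p = 0.00207) for Col4a1 and -1.36 ± 0.26 (adjusted p = 0.000545) for Col4a2. OXA over vehicle gave, for Col4a1, -0.37 ± 0.21 (adjusted p = 0.44) in KO and 0.47 ± 0.21 (adjusted p = 0.0818) in WT. For Col4a2 it gave -0.49 ± 0.26 (adjusted p = 0.416) in KO and 0.55 ± 0.26 (adjusted p = 0.108) in WT. Neither genotype alone passed the threshold, and the interaction passed for Col4a1 at -0.85 ± 0.29 (adjusted p = 0.04998) but not for Col4a2, at -1.04 ± 0.37 (adjusted p = 0.0556). The Col4a1 call is at the edge of the threshold: it was lost under 16 of 27 alternatives, among them leaving out replicate 1, 2 or 3 of any of the 4 groups (log2 difference -0.89 to -0.68, adjusted p = 0.0644 to 0.116). Markers of endothelial cells, which lie on type IV collagen, moved in the same direction as these genes. Of 8, 6 were higher in WT OXA than in WT vehicle (75%, against 18% of all genes). In KO OXA 7 were lower than in WT OXA (87.5%, against 12.9% of all genes). None was called with OXA in KO, where 1.81% of all genes were called higher and 0.0896% lower. The summed level of these markers was 520.3 to 997 in KO OXA, 702 to 1142 in KO vehicle, 1429 to 2542 in WT OXA and 876 to 1098 in WT vehicle, and none was at 0 in all libraries. Pecam1, an adhesion protein of vessel lining, gave 1.17 ± 0.25 (adjusted p = 0.00118) in WT. The part of vessel content in the type IV result was not tested.

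Col4a5 and Col4a6 encode the chains typical of epithelial and smooth muscle basement membranes. Col4a6 values were 75.2, 139, 169.6 and 124 in KO OXA, against 276, 150.2, 202 and 235 in KO vehicle, and 86, 76.5, 104 and 67 in WT OXA, against 193, 178, 177 and 71.3 in WT vehicle. WT vehicle replicate 4 lay with the WT OXA libraries, and the other 3 WT vehicle libraries were at least 177. Col4a6 fell in WT, at -0.80 ± 0.31 (adjusted p = 0.0484). In KO its change was of nearly the same size but was not called, at -0.79 ± 0.31 (adjusted p = 0.239), and the interaction was 0.02 ± 0.43 (adjusted p = 0.983). The WT call was lost under 17 of 27 alternatives, among them leaving out WT OXA replicate 1, 2 or 4, WT vehicle replicate 1, 2 or 3, KO OXA replicate 2 or 4 or KO vehicle replicate 1, 3 or 4 (log2 fold change -0.83 to -0.67, adjusted p = 0.0527 to 0.132). With equal library totals the WT value was -0.49 (adjusted p = 0.249). The genes Col4a3, Col4a4 and Col4a5 were not called in any comparison. Col4a3 and Col4a4, whose chains are known from kidney and lung basement membranes, did not exceed 68.5 and 61.4 in any library, and Col4a5 was at 273 to 528 across all 16 libraries.

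**Figure D4:**
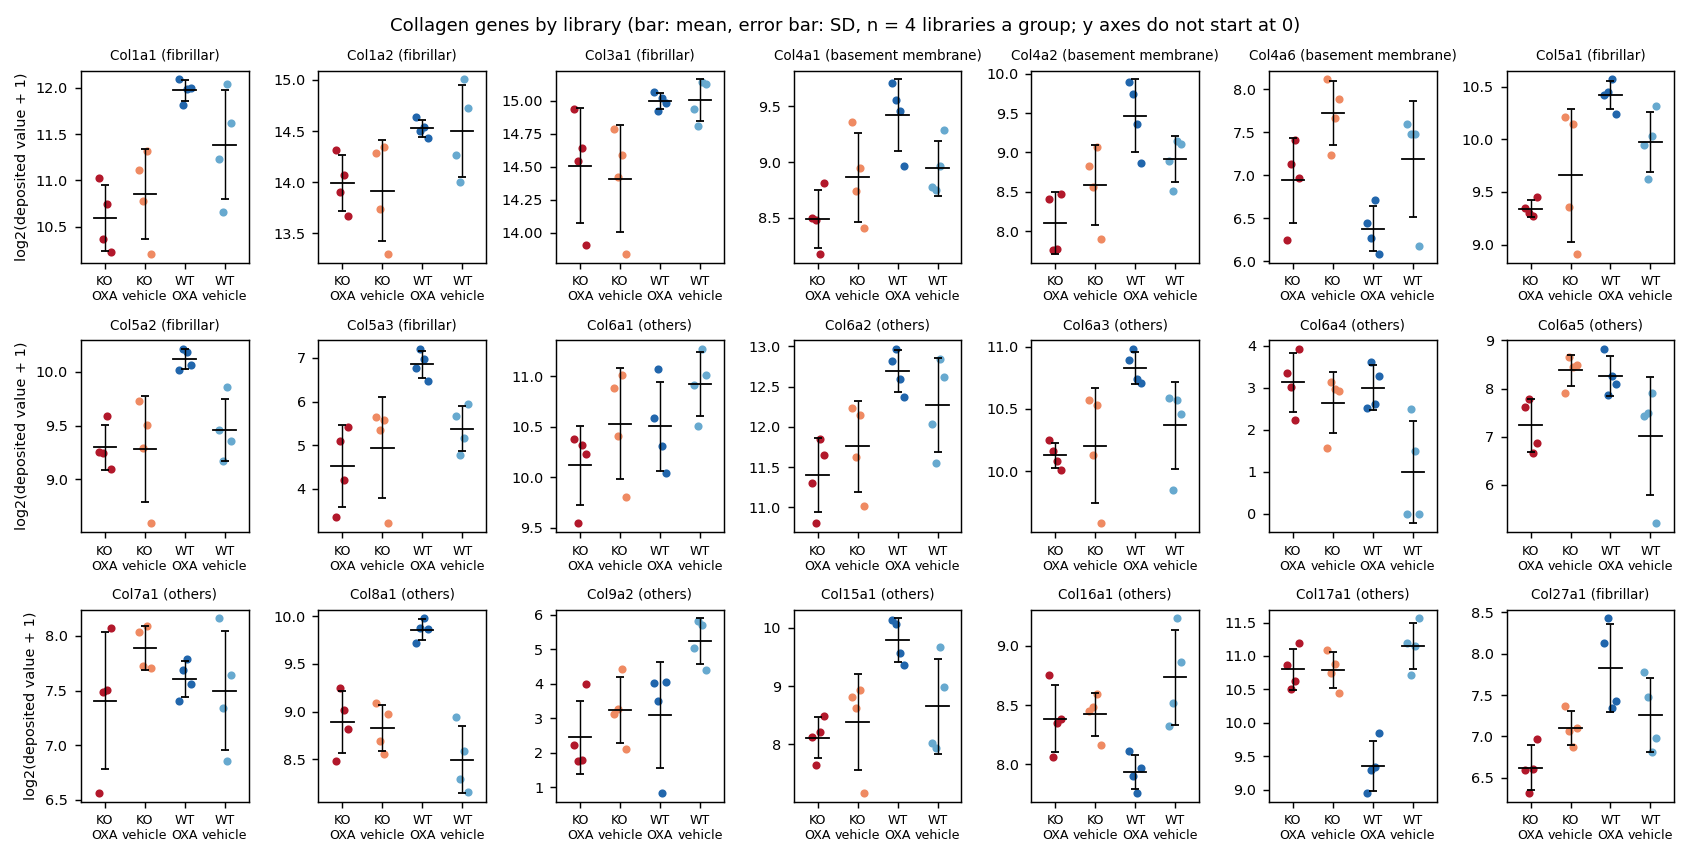
Log2(deposited value + 1) of 21 collagen genes in each of 16 libraries, by group, with the group mean and SD (n = 4); y axes differ between genes and do not start at 0. Col8a1 and Col15a1 are high and Col17a1 and Col16a1 low in WT OXA, and the KO OXA and KO vehicle libraries overlap for these genes.

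Among the 26 others, of which 25 were tested, 4 rose with OXA in WT (16%, against 18% of all genes) and 3 fell (12%, against 16%), and none was called in KO. In KO OXA 4 were lower than in WT OXA (16%, against 12.9% of all genes) and 1 was higher (4%, against 14.6%). Col17a1 encodes the transmembrane collagen of hemidesmosomes, the junctions that fix basal keratinocytes to the basement membrane. Col17a1 values were 1870.2, 1454, 1582 and 2351 in KO OXA, against 2187, 1719, 1877 and 1393 in KO vehicle, and 494, 627, 646 and 925 in WT OXA, against 2335, 1684, 2268 and 3022 in WT vehicle. The WT OXA libraries were below all 12 others, which overlapped one another. OXA over vehicle was -1.79 ± 0.21 (adjusted p = 2.62e-06) in WT, while in KO it was 0.01 ± 0.21 (adjusted p = 0.988), whose sign turned with equal library totals, and the interaction was 1.80 ± 0.29 (adjusted p = 0.000348). KO over WT under OXA was 1.44 ± 0.21 (adjusted p = 3.54e-05). The WT fall, the interaction and the genotype difference of Col17a1 were each kept under all 27 alternatives. Of 8 basal epithelial markers, 2 were higher (25%, against 18% of all genes) and 4 lower (50%, against 16%) in WT OXA than in WT vehicle. Itgb4, the integrin of the junction that holds Col17a1, gave -0.80 ± 0.19 (adjusted p = 0.00338), and Lamb3, a chain of the laminin it binds, -1.33 ± 0.22 (adjusted p = 0.000128). Itga6, an integrin chain also among the 8, went the other way, at 1057 ± 115 in WT OXA and 713 ± 95.5 in WT vehicle. In KO, Itgb4 averaged 568 ± 215 with OXA and 745 ± 96.1 with vehicle. Lamb3 averaged 196 ± 57.3 and 258 ± 39.3 there, and none of the 8 was called in KO. Krt15, a keratin of resting basal cells, gave -2.38 ± 0.28 (adjusted p = 3.11e-06), while Krt14, another basal keratin, gave 2.04 ± 0.20 (adjusted p = 4.22e-07). The summed level of these markers was 41592 to 66687 in KO OXA, 42199 to 47542 in KO vehicle, 33447 to 48841 in WT OXA and 36954 to 63980 in WT vehicle, and none was at 0 in all libraries. The part of basal cell content in the Col17a1 result was not tested. The other transmembrane collagens, Col13a1, Col23a1 and Col25a1, were not called in any comparison.

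Col8a1 encodes a chain of the short-chain network of type VIII collagen, known from vessel walls and from the basement membrane of the cornea. Col8a1 values were 356, 607, 519 and 451 in KO OXA, against 543, 412, 376 and 502 in KO vehicle, and 838, 936, 1006 and 932 in WT OXA, against 492, 312, 385 and 285 in WT vehicle. All 4 WT OXA libraries were at 838 or more, and no other library exceeded 607. OXA over vehicle was 1.36 ± 0.19 (adjusted p = 1.94e-05) in WT and 0.06 ± 0.19 (adjusted p = 0.919) in KO, where its sign turned with equal library totals, and the interaction was -1.30 ± 0.27 (adjusted p = 0.00238). KO over WT under OXA was -0.96 ± 0.19 (adjusted p = 0.000665). These Col8a1 calls were kept under all 27 alternatives. Col8a2, the partner chain, did not exceed 16.7 in any library and was not called.

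Col15a1 encodes type XV collagen, a multiplexin that links basement membranes to the fibers beneath, mostly around vessels and muscle. Col15a1 values were 279, 200.03, 296 and 357 in KO OXA, against 450.3, 396, 486 and 143 in KO vehicle, and 1123, 1075, 762 and 659 in WT OXA, against 259, 246, 810.0 and 504 in WT vehicle. KO OXA was below WT OXA in every library, and WT vehicle replicate 3 lay within the WT OXA range. OXA over vehicle in WT was 1.13 ± 0.37 (adjusted p = 0.0229), KO over WT under OXA -1.67 ± 0.37 (adjusted p = 0.00203), and the interaction -1.40 ± 0.52 (adjusted p = 0.0688). The WT call of Col15a1 was lost without WT OXA replicate 1 or 2 or WT vehicle replicate 1 or 2 (log2 fold change 0.90 to 1.04, adjusted p = 0.0618 to 0.0776) and with no trend in the variance (adjusted p = 0.0554). Col15a1 also stood with the endothelial markers given above in its direction in WT and between the genotypes. Col18a1, the other multiplexin, was at 37.8 to 143 across libraries and was not called.

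Type VI collagen forms beaded filaments around cells, built from the chains of Col6a1 and Col6a2 with a longer chain such as Col6a3. Col6a1 values were 1329, 745, 1274 and 1205 in KO OXA, against 1895, 1356, 2069 and 893 in KO vehicle, and 1541, 2158, 1270.4 and 1053 in WT OXA, against 1926, 1451, 2472 and 2070.3 in WT vehicle. Col6a2 values were 2518, 1780.1, 3701 and 3212 in KO OXA, against 4824, 3148, 4542 and 2071 in KO vehicle, and 7245, 8019.7, 6168 and 5314 in WT OXA, against 4213, 3004, 7370.4 and 6316 in WT vehicle. Col6a3 values were 1219, 1142, 1086 and 1029.8 in KO OXA, against 1518, 1121, 1483 and 765 in KO vehicle, and 1899, 2022, 1707 and 1677 in WT OXA, against 1541, 921, 1518 and 1408 in WT vehicle. Col6a2 and Col6a3 in KO OXA were below WT OXA in every library, while the groups overlapped for Col6a1. KO over WT under OXA was -1.29 ± 0.29 (adjusted p = 0.0023) for Col6a2, -0.70 ± 0.20 (adjusted p = 0.0106) for Col6a3 and -0.39 ± 0.26 (adjusted p = 0.295) for Col6a1. With equal library totals the Col6a1 difference passed, at -0.80 (adjusted p = 0.0216). Under vehicle KO over WT was -0.40 ± 0.26 (adjusted p = 0.643) for Col6a1. In WT the OXA effect was 0.42 ± 0.29 (adjusted p = 0.279) for Col6a2 and 0.46 ± 0.20 (adjusted p = 0.0734) for Col6a3. Whether Col6a1 and Col6a2 differ in their response was not tested, and their ratio is given above as a description.

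Col6a4, Col6a5 and Col6a6 encode the longer chains that can stand in for Col6a3, and they lie in a row on chromosome 9, with 27917 bases between Col6a6 and Col6a5 and 28810 between Col6a5 and Col6a4. Col6a5 values were 196, 220.3, 100.3 and 117 in KO OXA, against 241, 405, 350.0 and 359 in KO vehicle, and 452, 232, 307 and 272 in WT OXA, against 172, 179, 239 and 35.7 in WT vehicle. In KO all OXA libraries were below all vehicle libraries, in WT 3 of the OXA libraries were above all vehicle libraries, and KO vehicle was above WT vehicle in every library. OXA over vehicle was -1.14 ± 0.42 (adjusted p = 0.212) in KO and 1.25 ± 0.42 (adjusted p = 0.0268) in WT. Col6a5 had the most negative interaction among the members called, -2.40 ± 0.60 (adjusted p = 0.00872), and it was kept under all 27 alternatives, while KO over WT under OXA missed the threshold at -1.02 ± 0.42 (adjusted p = 0.0772) and passed with equal library totals (-1.43, adjusted p = 0.0123), only the groups compared, edgeR, DESeq2 or without WT vehicle replicate 4. The WT call of Col6a5 was lost without WT OXA replicate 1 or 3 or WT vehicle replicate 4 (log2 fold change 0.65 to 1.25, adjusted p = 0.0544 to 0.0855), the lower of these changes being the one without WT vehicle replicate 4. It was also lost with no filter, only the groups compared or no trend (adjusted p = 0.0566 to 0.0656). Col6a4 values were 9.17, 7.14, 3.71 and 14.2 in KO OXA, against 1.95, 7.77, 6.85 and 6.57 in KO vehicle, and 4.72, 11.3, 5.1 and 8.64 in WT OXA, against 0, 4.64, 1.82 and 0 in WT vehicle. These are values of a few reads a library, and WT vehicle had 2 libraries at 0. Col6a4 rose in WT by 2.01 ± 0.68 (adjusted p = 0.0274) on log2(value + 1). Its call was lost without WT OXA replicate 2 or 4 or WT vehicle replicate 1 or 4 (log2 fold change 1.67 to 1.92, adjusted p = 0.0673 to 0.0812). It was lost as well with edgeR, with DESeq2, with both kinds of thinned reads and with a pseudocount of 5, where the value was 0.93 (adjusted p = 0.0515 to 0.107 over these settings). Col6a6 was at 13.6 to 122 across libraries and was not called.

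Of the collagens that attach to the surface of fibers (FACIT collagens), 8 were tested, and none was called higher in any comparison. Col9a3, which was not called, came nearest: its OXA over vehicle was 2.34 ± 0.90 (adjusted p = 0.0505) in WT, where every WT OXA library was above every WT vehicle library. Col9a3 was near the floor, with 1, 0, 0 and 1 reads in WT vehicle and 20, 13, 40 and 7 in the deeper WT OXA libraries. Its value was 5 or above only in WT OXA replicates 1, 2 and 3 (7.26, 6.67 and 15.69) and KO OXA replicate 2 (11.91). Col9a3 thus passed the filter on low values mainly through the group where it was high, so its p-values are no support for a rise. It passed the threshold with a pseudocount of 5, equal library totals, only the groups compared or no trend, and without WT vehicle replicate 4 or any 1 of the KO OXA libraries (adjusted p = 0.0208 to 0.158 over 26 alternatives). Col16a1, a FACIT collagen of fibroblasts and smooth muscle, had values of 431, 266, 326 and 332 in KO OXA, against 348, 357, 385 and 286 in KO vehicle, and 275, 238, 215 and 249 in WT OXA, against 319, 366, 600.2 and 464 in WT vehicle. WT OXA lay below every WT vehicle library, and KO OXA overlapped KO vehicle. OXA over vehicle in WT was -0.80 ± 0.19 (adjusted p = 0.00324) and the interaction 0.77 ± 0.27 (adjusted p = 0.0572). The WT call was lost with equal library totals (-0.48, adjusted p = 0.0518) and with thinned reads at equal totals (-0.40, adjusted p = 0.123), and was kept without any 1 library. The interaction was as low as 0.22 over the alternatives (adjusted p up to 0.618) and passed with a filter of 20, with DESeq2 and without WT vehicle replicate 1 or 2 or KO OXA replicate 2. Markers of smooth muscle moved in the same direction in WT, where 4 of 8 were lower (50%, against 16% of all genes) and none higher (against 18%). Their summed level was 18839 to 34242 in KO OXA, 31285 to 34463 in KO vehicle, 20332 to 34788 in WT OXA and 27837 to 55763 in WT vehicle, with none at 0 in all libraries. Myh11, the smooth muscle myosin, gave -1.24 ± 0.24 (adjusted p = 0.000585). The part of muscle content in the Col16a1 result was not tested.

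Col9a2, a FACIT collagen of cartilage, had values of 3.67, 2.38, 2.48 and 15 in KO OXA, against 7.8, 8.63, 20.5 and 3.28 in KO vehicle, and 15.2, 10.3, 0.78 and 15.7 in WT OXA, against 31.7, 55.6, 51.1 and 20.1 in WT vehicle. All WT OXA libraries were below all WT vehicle libraries, and KO OXA replicate 4 stood above the rest of its group. Col9a2 fell in WT, at -2.14 ± 0.72 (adjusted p = 0.0269), a call lost without WT OXA replicate 3 or WT vehicle replicate 2 or 3 (log2 fold change -1.98 to -1.38, adjusted p = 0.0656 to 0.12). It was also lost with no filter, equal library totals, both kinds of thinned reads and edgeR (log2 fold change -2.14 to -1.84, adjusted p = 0.0513 to 0.0975). Of 11 cartilage markers only 4 were tested and none was called in WT, and the defining markers Matn1 and Snorc were at 0 in all libraries. Of 6 airway markers 3 were tested, and 2 of these fell in WT (66.7%, against 16% of all genes). Cyp2f2, an enzyme of airway secretory cells, gave -5.62 ± 0.22 (adjusted p = 1.16e-12) in WT. Its values were 17136 to 32806 in KO OXA, 25431 to 33988 in KO vehicle, 589 to 1032 in WT OXA and 35726 to 54185 in WT vehicle. Other airway markers were low: Scgb1a1 averaged 10.9 in WT OXA and 92.0 in WT vehicle. Bpifb1 went the other way, at 7.61 in WT OXA and 4.79 in WT vehicle. Foxj1 and Bpifa1 were at 0 in WT vehicle. The part of neighboring tissue in the Col9a2 result was not tested. The FACIT collagens Col12a1, Col14a1, Col19a1, Col20a1 and Col22a1 were not called in any comparison. Col7a1 encodes the anchoring fibril that ties the epithelial basement membrane to the tissue beneath, and its values were 93.5, 179, 181 and 268 in KO OXA, against 261, 211, 271 and 208 in KO vehicle, and 168, 205, 219.7 and 188 in WT OXA, against 285, 161, 115 and 198 in WT vehicle. All 4 groups overlapped for Col7a1, which was not called in any comparison. The 20 tested collagen genes without values in every library here had group means of 0.903 to 2982, and their lowest adjusted p in any comparison was 0.0505, in WT.

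**Figure D5:**
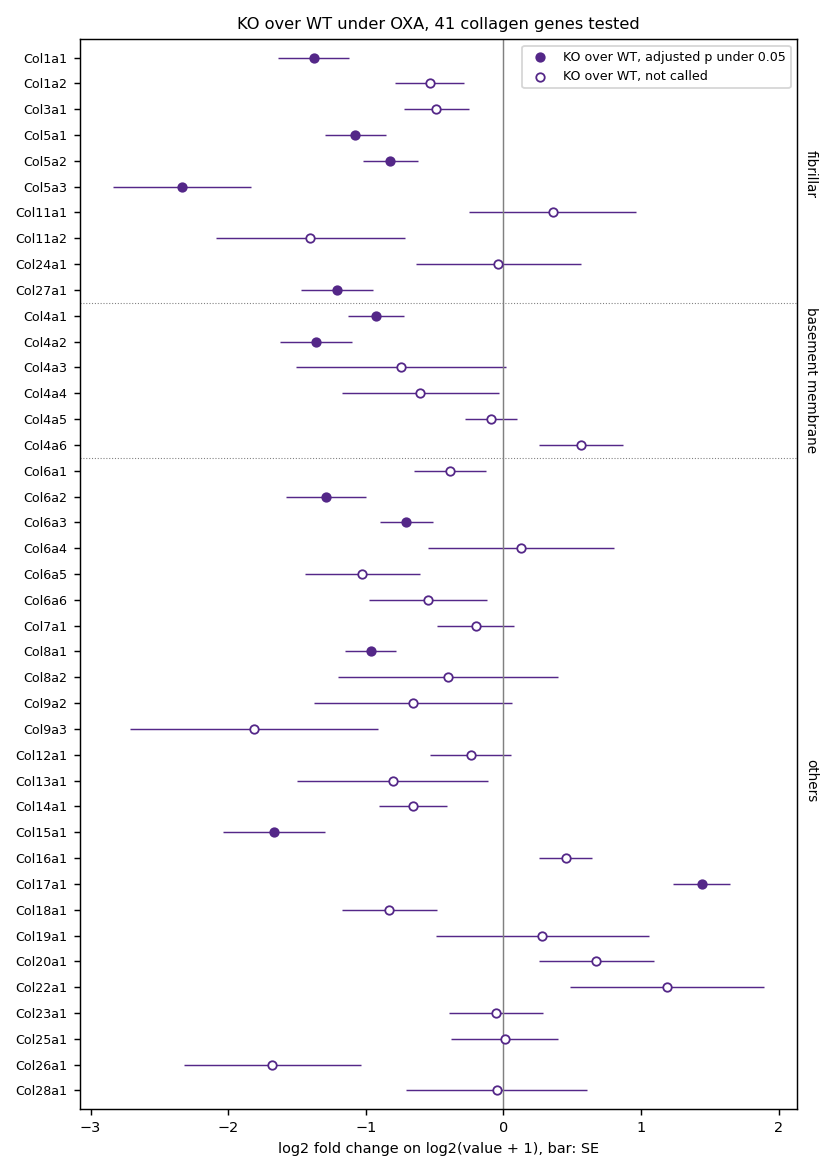
Log2 fold change of KO over WT under OXA, on log2(value + 1), for the 41 collagen genes tested, with bars for the SE and filled points for an adjusted p under 0.05; dotted lines part the classes. There are 11 filled points left of 0, from Col5a3 at -2.34 to Col6a3 at -0.70, and the 1 filled point right of 0 is Col17a1, at 1.44.

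The genes that make, cut, link and read collagen were examined as lists chosen with earlier results of these data known. In WT 18% of all genes rose and 16% fell. Of 20 genes for folding and modification of procollagen, 1 rose (5%) and 1 fell (5%) there. P4ha3, a chain of prolyl hydroxylase, gave 2.07 ± 0.59 (adjusted p = 0.00988), and Ppib, a folding enzyme of the endoplasmic reticulum, gave -1.18 ± 0.20 (adjusted p = 0.000142). Of 13 genes for propeptide cleavage and crosslinking, 4 rose (30.8%) and 1 fell (7.69%). Lox, which starts the crosslinking of collagen fibers, gave 2.66 ± 0.54 (adjusted p = 0.000878) in WT and -2.38 ± 0.77 (adjusted p = 0.0371) for the interaction, with means of 32.1 ± 9.46 in KO OXA, 27.5 ± 13.1 in KO vehicle, 168 ± 36.8 in WT OXA and 34.9 ± 23.7 in WT vehicle (SD, n = 4 each). Adamts14, which removes the amino-terminal propeptide, gave 2.58 ± 0.69 (adjusted p = 0.00713), and Pcolce2, an enhancer of propeptide cleavage at the other end, -0.65 ± 0.18 (adjusted p = 0.00785). In KO none of the 13 was called. Of 8 tested genes for collagen degradation and uptake, 3 rose (37.5%) and 1 fell (12.5%) in WT: Mmp14, a membrane collagenase, gave 1.08 ± 0.20 (adjusted p = 0.000416), and Mmp2, a gelatinase that Mmp14 activates, -0.62 ± 0.20 (adjusted p = 0.0239). Of 9 tested collagen receptors, 2 rose (22.2%), Itgb1, the integrin chain shared by the collagen-binding integrins, at 0.80 ± 0.13 (adjusted p = 0.000155), and Lair1, an inhibitory receptor of leukocytes, at 1.85 ± 0.34 (adjusted p = 0.000392). In KO Lair1 rose as well, at 2.73 ± 0.34 (adjusted p = 8.32e-05), and the 1 gene for degradation called there was Mmp13, a collagenase named here after its values were seen, at 3.17 ± 0.79 (adjusted p = 0.0409). Mmp13 was near the floor, at 6.19 to 9.53 in KO OXA and 0 in every KO vehicle library. It passed the filter on low values through the KO OXA libraries, where it was high.

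Of 16 laminins and other partners of type IV in the basement membrane, 3 rose in WT (18.8%, against 18% of all genes) and 3 fell (18.8%, against 16%). In KO OXA 3 were higher than in WT OXA (18.8%, against 14.6% of all genes) and 6 lower (37.5%, against 12.9%). Pxdn, the peroxidase that crosslinks type IV collagen, gave 0.67 ± 0.22 (adjusted p = 0.0247) in WT, whereas Lama3, the epithelial laminin chain that partners Lamb3, gave -1.04 ± 0.16 (adjusted p = 5.51e-05) in WT and 0.96 ± 0.22 (adjusted p = 0.00562) for the interaction. Among 11 tested fibroblast markers, 1 was higher (9.09%, against 18% of all genes) and 2 lower (18.2%, against 16%) in WT OXA than in WT vehicle. In KO OXA 3 were lower than in WT OXA (27.3%, against 12.9% of all genes) and none higher (against 14.6%). Of these 11 markers 6 had a fitted change above 0, and their median was 0.03, against -0.05 over all genes. Their summed level was 13350 to 26383 in KO OXA, 18064 to 20524 in KO vehicle, 15529 to 20195 in WT OXA and 19848 to 27885 in WT vehicle, overlapping among all groups, and of 12 in the list Dpep1 was at 0 in all libraries. The part of fibroblast content in the fibrillar results was not tested.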

How the data were processed

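The 16 libraries of mouse esophagus RNA were made by CEL-Seq, per the labels. Per the submitters' processing notes, the authors used FastQC 0.11.5, Trim Galore, cutadapt 1.10, TopHat2 2.1.0, Bowtie2 2.2.6, HTSeq 0.6.1, DESeq2 1.28.0 and GRCm38. The deposited signal has no negative values and holds the count of each gene over a size factor of its library. Dividing by the smallest step of each library recovered whole reads (tolerance 0.1 read) for 100% of values, and their sums are the depths. Handling of molecular identifiers and of strand is not given in the sources used here.

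Values were tested on log2(value + 1) with limma 3.58.1 (R 4.3.3; eBayes, trend, two-sided), fitting 4 group means to all 16 libraries. Adjustment was by Benjamini-Hochberg over 16748 genes, those reaching 5 in 4 or more libraries. This scale understates changes of low genes. There were 5 comparisons: OXA over vehicle within each genotype, their interaction, and KO over WT within each treatment. The collagen members, their classes and the other gene lists were chosen with earlier results of these data known. Values in every library are given for the members called in at least 1 comparison and for a few genes fixed by name, 21 in all; other lists name up to 4 genes with the smallest p in WT and up to 3 in the interaction. Before use, the fit was tested on simulated data with set changes.

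Alternatives were pseudocounts of 0.5 and 5, no filter, a filter of 20, equal library totals, reads thinned to 5.61 M (mega) per library, only the groups compared, no trend, DESeq2 1.42.0 and edgeR 4.0.16 (TMM, quasi-likelihood) on recovered reads, and each library left out in turn. Thinning with the deposited scaling and a block on the numbers in the titles were added after seeing the data.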

Additional observations from a re-analysis of the deposited data

Results flagged for a closer look

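A library stood far from the other 3 of its group in 2 of 84 groups examined (21 genes in 4 groups), fewer than the 1 in 20 that chance flags. Col4a6 was at 71.3 in WT vehicle replicate 4, against 177 to 193 in the other WT vehicle libraries. Col9a2 was at 14.97 in KO OXA replicate 4, against 2.38 to 3.67 in the other KO OXA libraries. That library also had the most genes above 0 of all 16, at 23730.

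The effect of OXA differed between KO and WT, by the interaction in limma (KO effect minus WT effect, Benjamini-Hochberg adjusted p under 0.05), for 4 members. The log2 difference was -2.40 for Col6a5, a chain of type VI collagen, -1.30 for Col8a1, of the short-chain network, and 1.80 for Col17a1, the hemidesmosome collagen. For Col4a1, a type IV chain, it was -0.85, at the edge of the threshold.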

How the results depend on the processing

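Of 1456 values of single members under 27 alternatives, 1269 kept their direction and their side of the threshold. None of the members called changed sign.

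With equal library totals the WT effect of OXA called 13 members higher and 1 lower, the interaction 12 lower, and KO against WT under OXA 18 lower; thinned reads with equal totals gave 12 higher and 1 lower, 12 lower, and 18 lower. No filter gave 2 lower in WT, as did thinned reads with the deposited scaling. In the interaction a filter of 20 gave 2 higher and 5 lower, edgeR 6 lower, and DESeq2 2 higher and 8 lower. Leaving out each library in turn gave 3 to 7 higher and 2 to 5 lower in WT, 0 to 1 lower in KO, 1 to 2 higher and 2 to 10 lower in the interaction, and 1 to 2 higher under OXA between the genotypes. The KO member appeared without WT vehicle replicate 4, a higher count of 2 in the interaction without WT vehicle replicate 1 or 2 or KO OXA replicate 2, the second higher call between the genotypes without KO OXA replicate 2, and lower counts of 5, 6 and 10 in the interaction without WT OXA replicate 4, KO OXA replicate 4 and KO vehicle replicate 4. Except for those given above with equal library totals, the shares of all genes called under these settings are not given here. The counts are therefore not set against genes at large, and the causes were not tested.

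Values near 0 changed sign without being called. Col1a2 in WT was -0.0012 with edgeR and -0.0256 with DESeq2, and -0.14 to 0.19 with a library left out. Col3a1 in WT was 0.31 with equal totals, 0.31 with thinned reads at equal totals and 0.0121 with edgeR, and -0.0713 to 0.0383 with a library left out. In KO, Col8a1 was -0.0588 and -0.0462 with these totals, and -0.055 to 0.20 with a library left out. Col17a1 in KO was -0.11 and -0.12 with these totals and -0.000276 with the added thinning, and -0.12 to 0.11 with a library left out. The Col4a6 interaction was -0.42 and -0.35 with these totals and -0.14 to 0.35 with a library left out.

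With Col7a1, Col15a1, Col17a1 and Col18a1 counted as basement membrane genes, that class summed to 3543 in KO OXA, 4057 in KO vehicle, 3861 in WT OXA and 4693 in WT vehicle. Titles carry codes of a letter and a number whose meaning is not given in the sources used here, and the numbers recur across groups. The letters, which differ within some groups, were not examined. WT vehicle replicate 4 and KO OXA replicate 4 each bear a letter that no other library of their group bears. Deviations from the group means of 20 same-numbered pairs correlated at -0.0837 to 0.285, 1 of them over 0.1, and 4 of 15 libraries correlated best with a library of their own number. Same-numbered libraries were therefore taken to share only a number. A fit with that number as a replicate block was chosen after seeing the data. It called 11 members lower in the interaction, against 3, and left every other count within 1.5 times. The share of all genes called lower in that fit is not given here. Of 54 single values 43 kept their side of the threshold and direction, and Col3a1 in WT was 0.0491 and Col17a1 in KO -0.14. WT vehicle had the shallowest libraries, from 5.61 M reads, which limits what can be read from low genes such as Col6a4 and Col9a2; read counts of tags are not independent molecules where identifiers were not used.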
